A study of Arabidopsis thaliana with 26 samples.

Results

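The 2 genes described here are NRT2.5 (AT1G12940), a high-affinity nitrate transporter, and AT1G68670, a GARP-type regulator of nitrate-starvation genes. Each was represented by 1 probe set, among 22746 probe sets that covered 13286 named genes. They were chosen from measured values, AT1G68670 for its fall with abscisic acid at 3 h and NRT2.5 for its fall with jasmonate at 24 h. Both were then followed through all groups. Comparisons that hold the arrays of either choosing group are given as descriptions with no test. Those that share only the ethanol controls with a choosing contrast were tested, but they are not independent of the choice.

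Plant cells take up nitrate at low supply through NRT2 transporters, and NRT2.5 is known as a member whose transcript accumulates in nitrogen-starved plants and is lowered by nitrate. GARP-type factors of the HRS1/HHO family, also called NIGT1 factors, are induced by nitrate and repress genes of the nitrogen starvation response, NRT2 genes among them. Abscisic acid is the main hormone of drought responses, salicylic acid acts in defence against biotrophic pathogens, and jasmonates act in wounding and defence against herbivores.

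Transcript levels were measured on 26 single-channel arrays of T87, an undifferentiated Arabidopsis thaliana suspension line of 1 genotype with no transgene named in the labels. Growing cultures were exposed for 3 h or 24 h to 1 of 5 treatments or to the control, 0.6% ethanol. The treatments were 25 µM abscisic acid (ABA), 300.0 µM of salicylic acid (SA), 100.0 µM methyl jasmonate (JA, as the labels call it), and ABA combined with SA or with JA. ABA alone had 3 arrays per time and every other group 2, which gives 12 groups. Values are log2 signals between 1.77 and 13.91, so that 1 unit is a doubling, and changes are differences of these, with the standard error (SE) of a limma fit of all arrays. A change was called when its p, corrected across the whole array by the method of Benjamini and Hochberg, was under 0.05. Each gene was tested in 23 of the 35 comparisons of the groups. The share of all probe sets called in the same direction is given as the background, at the latest beside the first call of each comparison.

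Several arrays stood apart. On the 4 arrays with 2 hormones at 3 h the title names one pair of hormones and the source name the other, and the groups here follow the titles. JRG21, whose product hydroxylates jasmonic acid, read 10.43 and 11.31 on the arrays titled ABA with JA and 3.06 and 2.94 on those titled ABA with SA. AT5G03350, a gene raised by SA, read 4.14 to 4.16 and 6.98 to 8.22 on them. UGT76B1, also raised by SA, read 8.04 to 8.91 and 11.52 to 11.96, against 5.58 and 5.63 with ethanol at 3 h. The higher level of each gene lay on the arrays whose title names its hormone. Replicates 2 and 3 of ABA at 3 h were nearly identical (r = 0.9975 across probe sets, against 0.9458 to 0.9885 for the other 15 replicate pairs) and count as 1 sample in each mean ± SD. In the limma fit they entered as separate arrays, so changes and SE with ABA at 3 h count both. Each array was also placed on a culture-time axis of 3240 probe sets, on which SA at 3 h has the mean 0 and SA at 24 h the mean 1. The early ethanol arrays had the places 0.0793 and 0.148 and the late ones 0.970 and 0.901, whereas replicate 1 of JA at 24 h stood at 0.0833 and replicate 1 of ABA with JA at 24 h at 0.101, among the 3 h arrays. Replicate 2 of JA at 3 h stood at 0.274, and LTI30, a dehydrin gene raised by ABA, read 10.13 on it and 5.81 on replicate 1, although neither array had ABA. Of 8 markers of differentiated cell types 1 was measured, the guard cell gene FMA, which stayed between 3.2 and 4.31 on all arrays. In such bulk samples, fewer cells that express a gene and less RNA per cell cannot be told apart. Whether replicates are separate cultures is not stated in the labels. The p-values therefore reflect the spread among these arrays, and that spread may be technical.

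In control cells NRT2.5 rose between 3 h and 24 h. It read 5.90 and 6.09 on the ethanol arrays at 3 h and 8.45 and 8.34 on those at 24 h. Both late arrays lay above both early ones, and the level at 24 h was the highest of the 12 groups. The rise was 2.4 ± 0.57 (SE), or 5.28-fold (limma, adjusted p = 0.0121, where 7.27% of all probe sets were called higher). Without any 1 of these 4 arrays the change stayed between 2.3 and 2.49 but was not called (adjusted p 0.0632 to 0.084). With SA, NRT2.5 went from 5.15 and 5.97 on the early arrays to 6.81 and 8.09 on the late ones, again without overlap. That rise was 1.89 ± 0.57 (limma, adjusted p = 0.0333, background 9.43%), and it was not called without replicate 1 of SA at 3 h (adjusted p = 0.239), replicate 2 at 3 h (adjusted p = 0.058) or replicate 2 at 24 h (adjusted p = 0.345).

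With ABA present NRT2.5 was low at 24 h. It read 4.35, 4.56 and 4.40 with ABA alone, 4.73 and 4.83 with ABA and SA, and 4.41 and 4.09 with ABA and JA. All 7 arrays lay below the ethanol arrays of 24 h, and also below those of 3 h. Against ethanol at 24 h, NRT2.5 fell by 3.96 ± 0.52 with ABA alone, a 15.6-fold difference (95% interval -5.05 to -2.86, limma adjusted p = 5.6e-05, background 11.3% called lower). It fell by 3.62 ± 0.57 with ABA and SA (adjusted p = 0.000956, background 2.11%). With ABA and JA the fall was -4.15 ± 0.57, or 17.8-fold (adjusted p = 0.000259, background 5.94%). Between 3 h and 24 h NRT2.5 changed by 0.40 ± 0.57 with ABA and SA and by 0.07 ± 0.57 with ABA and JA, neither called (adjusted p = 0.649 and 0.953). The 3 calls against ethanol held under every alternative run, each left-out array included, but they rest on the same 2 ethanol arrays. The percentile of the NRT2.5 signal within an array went from 89.3 and 89.9 with ethanol at 24 h to between 38.6 and 45.6 on the 7 arrays with ABA. The ABA arrays of 24 h stood at 0.101 to 0.723 on the culture-time axis, short of the ethanol arrays. Those with ABA alone stood at 0.392, 0.491 and 0.429, no later than ABA alone at 3 h (0.462 to 0.577). The part of this in the falls was not tested.

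**Figure D1:**
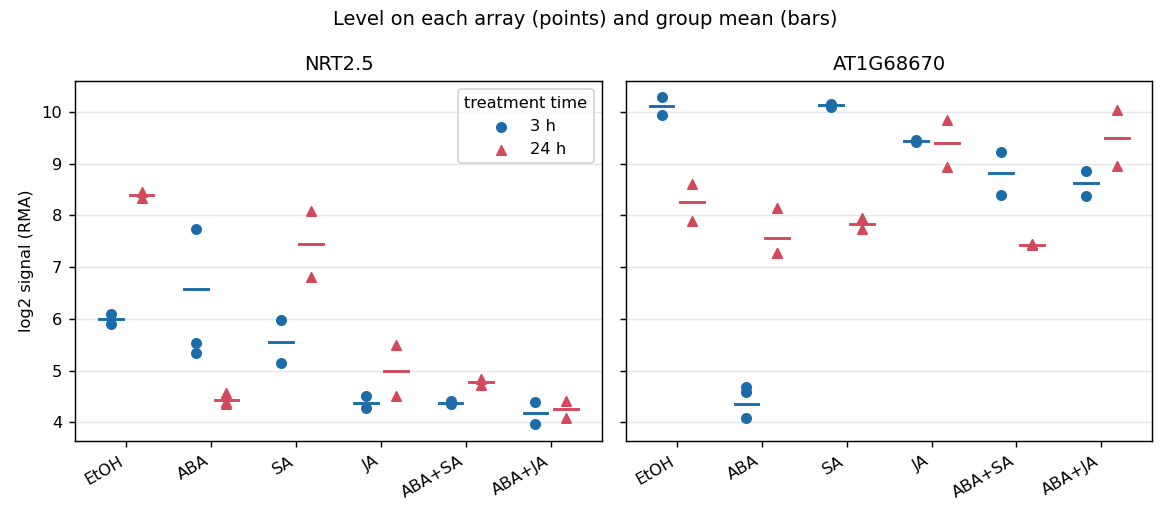
The y axis gives the log2 signal of NRT2.5 (left) and AT1G68670 (right) on each array, with circles for 3 h, triangles for 24 h and bars for group means (replicates 2 and 3 of ABA at 3 h averaged first). NRT2.5 was high with ethanol and SA at 24 h and lay between 4.09 and 4.83 on the 7 ABA arrays of that time, and AT1G68670 lay between 4.09 and 4.69 with ABA alone at 3 h and at 7.27 or above on all other arrays.

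A comparison that does not use the ethanol arrays gave the same direction. With ABA and SA at 24 h NRT2.5 was lower than with SA alone by 2.67 log2 units (-2.67 ± 0.57, limma adjusted p = 0.0132, background 1.52%), and the arrays did not overlap. The call was lost without replicate 2 of SA at 24 h (-2.03, adjusted p = 0.25) or without either array of the pair (adjusted p = 0.105 and 0.0848). Between ABA with SA and ABA alone at 24 h the difference was 0.34 ± 0.52 (95% interval -0.75 to 1.44, adjusted p = 0.754). Between ABA with JA and ABA alone it was -0.19 ± 0.52 (95% interval -1.28 to 0.91, adjusted p = 0.881). Neither was called, and the intervals still allow differences of more than 1 log2 unit in one direction.

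SA by itself left NRT2.5 without a call at both times. Its change against ethanol was -0.44 ± 0.57 at 3 h (95% interval -1.64 to 0.76) and -0.94 ± 0.57 at 24 h (95% interval -2.14 to 0.26), both with an adjusted p of 1. Few probe sets were called lower there at all, 0.0044% at 3 h and 0.0132% at 24 h. With JA, which served to choose the gene at 24 h, NRT2.5 read 4.50 and 4.27 on the early arrays and 4.50 and 5.50 on the late ones. Against ethanol the 24 h arrays differed by -3.39 ± 0.57, the 8th lowest change of all probe sets there, which is a description of the choice. Both JA arrays at 3 h were below both ethanol arrays, and the difference of -1.61 ± 0.57 had an adjusted p of 0.601 in a comparison where 0.0396% of probe sets were called lower. Without replicate 2 of JA at 3 h it was -1.50 (adjusted p = 1).

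At 3 h NRT2.5 read lower with the hormone pairs than with ethanol, but only ABA with JA was called. ABA alone was not tested. The 3 arrays with ABA alone read 7.74, 5.54 and 5.33, a mean of 6.58 ± 1.63 (SD, n = 2), and spread to both sides of the ethanol arrays. The arrays with ABA and SA read 4.41 and 4.35 and those with ABA and JA 3.96 and 4.40. All 4 lay below the 3 arrays with ABA alone and both ethanol arrays. With ABA and JA the fall against ethanol was -1.82 ± 0.57 (limma, adjusted p = 0.0275, background 13.0%), and with ABA and SA the change was -1.62 ± 0.57 (adjusted p = 0.0633). The first call was lost without any 1 of its 4 arrays (adjusted p 0.0565 to 0.154), and with groups by source name the pair that passed was the other one, ABA with SA (-1.82, adjusted p = 0.0275). The call with ABA and SA was gained without replicate 1 or 3 of ABA alone at 3 h (adjusted p = 0.0041 and 0.0461), which changes the shared estimate of spread. The pairs' changes against ethanol were larger at 24 h than at 3 h by -2.0 ± 0.81 with SA and -2.33 ± 0.81 with JA, not called (adjusted p = 0.195 and 0.0815) but called without replicate 1 of ABA at 3 h (adjusted p = 0.0282 and 0.00688). NRT2.5 with ABA and JA differed from JA alone by -0.20 ± 0.57 (95% interval -1.40 to 1.0, adjusted p = 0.842), and the 2 pairs differed from each other by the same -0.20 (adjusted p = 0.99).

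Ordered by group mean, NRT2.5 was highest with ethanol at 24 h (8.39), then SA at 24 h (7.45), ABA at 3 h (6.58), ethanol at 3 h (6.0) and SA at 3 h (5.56). The remaining 7 groups lay between 4.18 and 5.0. Neighbours in this order overlapped in their arrays except ethanol above SA at 24 h, where the difference was not called, and ABA with SA above ABA alone at 24 h, also not called. No detection call was used here, so a level near 4 cannot be told apart from background signal.

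AT1G68670 had another pattern. In control cells it fell with time, from 10.28 and 9.93 at 3 h to 7.89 and 8.60 at 24 h. The arrays of the 2 times did not overlap. The fall was -1.86 ± 0.40, or 3.63-fold (limma, adjusted p = 0.00658, background 3.89% called lower), and was not called without replicate 1 of ethanol at 3 h (adjusted p = 0.0674) or at 24 h (adjusted p = 0.0769). With SA it fell from 10.10 and 10.16 to 7.95 and 7.73, by 2.29 log2 units (-2.29 ± 0.40, adjusted p = 0.00111, background 4.82%), and this call held without each array in turn. With ABA and SA it fell from 8.40 and 9.23 to 7.42 and 7.44 (-1.39 ± 0.40, adjusted p = 0.0139, background 9.98%), a call lost without replicate 1 or 2 of that pair at 24 h (adjusted p = 0.0617 and 0.065) or replicate 2 at 3 h (adjusted p = 0.165).

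The low level that led to the choice of AT1G68670 was found on the 3 arrays with ABA alone at 3 h. They read 4.09, 4.69 and 4.58, a mean of 4.36 ± 0.39 (SD, n = 2), and the other 23 arrays read between 7.27 and 10.28. The change against ethanol was -5.65 ± 0.36, or 50.2-fold, the 10th lowest of all probe sets. Its signal stood at the 33.8th to 44.9th percentile of these arrays and at the 97.2nd and 98.0th with ethanol. As no detection call was used, so low a level cannot be told apart from background signal. The size of changes measured from it is therefore uncertain. At 24 h with ABA alone AT1G68670 read 7.27, 7.27 and 8.14, which overlapped the ethanol arrays, and the change of -0.69 ± 0.36 was not called (95% interval -1.44 to 0.07, adjusted p = 0.213). The ABA arrays of 3 h stood at 0.462 to 0.577 on the culture-time axis, beyond the other arrays of 3 h, and the part of this in their AT1G68670 level was not tested.

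When SA or JA was given with ABA for 3 h, AT1G68670 was nearer to the control level than with ABA alone. It read 8.40 and 9.23 with ABA and SA and 8.86 and 8.38 with ABA and JA, all above the arrays with ABA alone and below the ethanol arrays. Described without a test, the level was 4.36 ± 0.36 higher with ABA and SA than with ABA alone and 4.16 ± 0.36 higher with ABA and JA. The changes with each pair exceeded the sum of the changes with its single hormones by 4.34 ± 0.54 and 4.84 ± 0.54. All of these differences include the low level with ABA alone, which cannot be told apart from background signal. LTI30 read 10.94 to 12.06 on these 4 arrays, 12.09 to 12.82 with ABA alone at 3 h, and 3.26 and 3.33 with ethanol at 3 h. It also read 5.81 and 10.13 with JA alone at 3 h, where no ABA was given. Against ethanol AT1G68670 was lower by 1.29 log2 units with ABA and SA (-1.29 ± 0.40, limma adjusted p = 0.0314, background 9.59%) and by 1.49 with ABA and JA (-1.49 ± 0.40, adjusted p = 0.0105, background 13.0%).

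Both of these smaller falls depended on single arrays. For ABA with SA the call was lost without replicate 1 (adjusted p = 0.195) or 2 (adjusted p = 0.0741) of ethanol or replicate 1 of the pair (adjusted p = 0.311). For ABA with JA it was lost without replicate 1 of ethanol (adjusted p = 0.0896) or replicate 2 of the pair (adjusted p = 0.0871). Against SA alone, ABA with SA gave -1.32 ± 0.40 (limma, adjusted p = 0.0335, background 7.62%), not called without either SA array (adjusted p = 0.124 and 0.147) or replicate 1 of the pair (adjusted p = 0.319). Against JA alone, ABA with JA gave -0.82 ± 0.40 (95% interval -1.65 to 0.02, adjusted p = 0.158). The single hormones SA and JA left AT1G68670 uncalled at 3 h (0.02 ± 0.40 and -0.67 ± 0.40, adjusted p of 1 and 0.98).

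**Figure D2:**
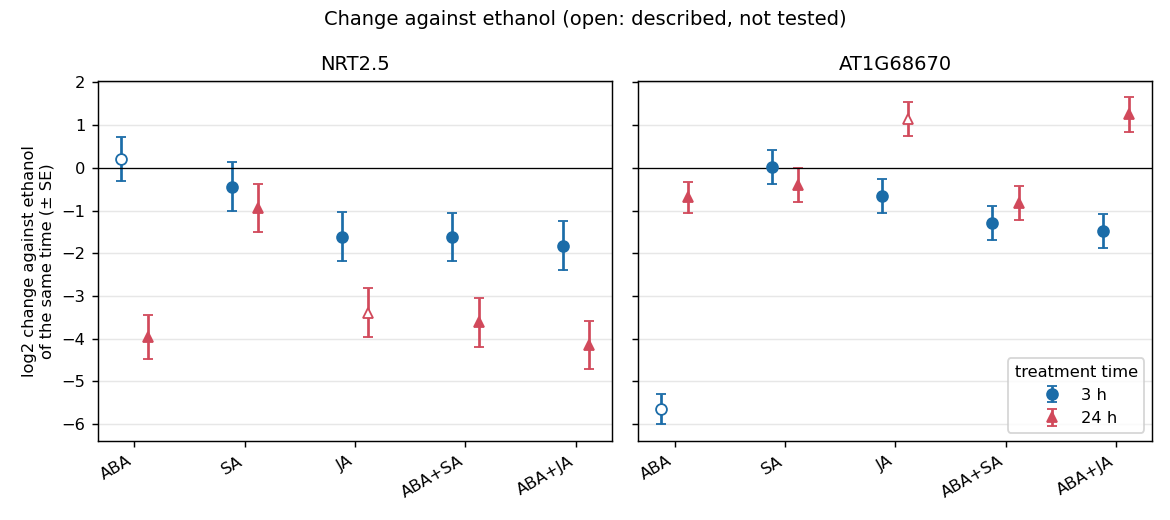
The y axis gives the log2 change of NRT2.5 (left) and AT1G68670 (right) against ethanol of the same time for each treatment, with error bars of 1 SE, circles for 3 h and triangles for 24 h. Open symbols mark ABA at 3 h and JA at 24 h, from which the genes were chosen. NRT2.5 lay lowest at 24 h with ABA, JA or both pairs (-4.15 to -3.39), and AT1G68670 at 3 h with ABA alone (-5.65).

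At 24 h AT1G68670 separated the pairs. With ABA and JA it read 10.03 and 8.96, above all 5 arrays with ABA alone or ABA and SA, which read 7.27 to 8.14. The level with ABA and JA was 1.94 ± 0.36 above that with ABA alone (limma, adjusted p = 0.00249, background 5.38% called higher) and 2.07 ± 0.40 above that with ABA and SA (adjusted p = 0.0058, background 1.5%). Replicate 1 of ABA with JA at 24 h stood among the 3 h arrays on the culture-time axis. Without it the differences were 1.40 (adjusted p = 0.089) and 1.54 (adjusted p = 0.109), and without replicate 2 of ABA with SA the second was not called either (adjusted p = 0.0566).

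The 2 arrays with JA alone at 24 h, which are given as a description, read 9.84 and 8.94, in the range of those with ABA and JA. All 4 arrays with JA at 24 h lay above the 9 others of that time, of which the highest read 8.60. Against ethanol, ABA with JA gave 1.25 ± 0.40 (95% interval 0.42 to 2.08, limma adjusted p = 0.0556), which passed without replicate 2 of that pair (1.78, adjusted p = 0.0265), either JA array of 24 h (adjusted p = 0.0391), replicate 3 of ABA at 24 h (adjusted p = 0.0429) or replicate 1 of ABA at 3 h (adjusted p = 0.0495). The response to ABA with JA had opposite signs at the 2 times, -1.49 at 3 h, which was called, and 1.25 at 24 h, which was not. The test of that difference gave 2.74 ± 0.56 (95% interval 1.56 to 3.92, limma adjusted p = 0.005, background 5.26%), and it stayed called without each array in turn (2.21 to 3.28). No such difference was called for ABA with SA (0.47 ± 0.56, adjusted p = 0.796). The difference of 2.74 with ABA and JA includes the fall of the ethanol control between the times (-1.86 ± 0.40). In the cells with ABA and JA the level changed by 0.88 ± 0.40 from 3 h to 24 h, which was not called (limma, adjusted p = 0.129).

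By group mean AT1G68670 was highest with SA (10.13) and ethanol (10.11) at 3 h, followed by ABA with JA at 24 h (9.50), JA at 3 h (9.43) and JA at 24 h (9.39). ABA with SA (8.81) and ABA with JA (8.62) at 3 h came next. Ethanol (8.25), SA (7.84), ABA (7.56) and ABA with SA (7.43) at 24 h followed, and ABA at 3 h (4.36) was last. Each neighbouring pair in this order overlapped in its arrays, except the last.

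The levels of the 2 genes were only weakly related across the arrays, which share treatments and culture times (r = -0.25, rho = -0.15 over 26 arrays). Of the 23 tested comparisons NRT2.5 was called higher in 2 and lower in 5, and AT1G68670 higher in 3 and lower in 6. Set against the culture-time axis, NRT2.5 rose and AT1G68670 fell along the ethanol and SA arrays. For NRT2.5 the arrays with ABA or JA, other than ABA alone at 3 h, lay mostly below these, at 3.96 to 5.5. The ethanol and SA arrays read 5.15 to 6.09 at 3 h and 6.81 to 8.45 at 24 h. For AT1G68670 the arrays with ABA alone at 3 h lay lowest, at 4.09 to 4.69.

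**Figure D3:**
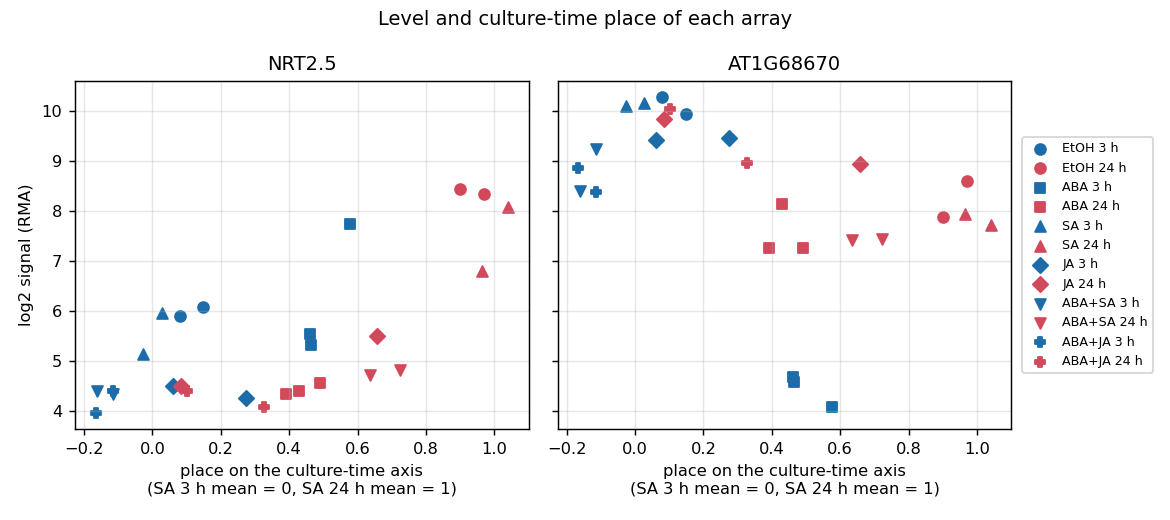
Each symbol is 1 of 26 arrays, with the place on the culture-time axis (no unit, SA at 3 h has the mean 0 and SA at 24 h the mean 1) on the x axis and the log2 signal of NRT2.5 (left) or AT1G68670 (right) on the y axis. Blue marks 3 h and red 24 h. Replicate 1 of JA (0.0833) and of ABA with JA (0.101) at 24 h lie among the 3 h arrays, and the 3 ABA arrays of 3 h lie apart at low AT1G68670 levels.

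The other GARP-type genes were read from a list of 7 HRS1/HHO family loci drawn from general knowledge, of which 5 were measured, AT1G68670 included. With ABA alone at 3 h, 2 of the other 4 fell, with a median of -1.69 over the 4 against 0.02 for all probe sets (10.3% called lower). AT1G25550 read 4.61, 4.92 and 5.01 with ABA and 7.61 and 8.17 with ethanol at 3 h (-3.05 ± 0.36, limma adjusted p = 2.49e-05). AT4G37180 read 3.35, 3.30 and 3.34 with ABA and 7.38 and 6.89 with ethanol (-3.80 ± 0.81, adjusted p = 0.0034). Neither group of arrays overlapped its control, and both calls held without each array in turn. The low AT4G37180 levels, with ABA here and with ethanol at 24 h, cannot be told apart from background signal. The size of changes measured from them is therefore uncertain. The other 2, AT3G25790 and AT1G49560, were dim on all arrays (2.7 to 3.50 and 3.01 to 4.64), and neither was called in this comparison.

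With a second hormone at 3 h neither AT1G25550 nor AT4G37180 was called lower than the control, whereas AT1G68670 was. AT1G25550 read 7.77 and 8.29 with ABA and SA and 8.16 and 7.88 with ABA and JA, within or near the range of ethanol (change 0.14 ± 0.39 and 0.13 ± 0.39, limma adjusted p = 0.891 and 0.856). It was higher than with ABA alone by 3.19 ± 0.36 and 3.18 ± 0.36 (limma, adjusted p = 1.6e-05 and 8.38e-06, background 9.61% and 12.4%). AT4G37180 read 8.69 and 9.21 with ABA and SA and 8.91 and 9.24 with ABA and JA, above both ethanol arrays, but its change against ethanol was not called (1.81 ± 0.89 and 1.94 ± 0.89, adjusted p = 0.205 and 0.132). It was higher than with ABA alone by 5.62 ± 0.81 and 5.74 ± 0.81 (adjusted p = 0.000139 and 6.85e-05). For AT1G25550 the change with ABA and JA exceeded the sum of the single changes by 3.32 ± 0.53 (limma, adjusted p = 0.000967, background 3.87%).

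At 24 h the 3 genes differed. AT4G37180 read 3.55 and 3.79 with ethanol and was higher with ABA (2.86 ± 0.81, limma adjusted p = 0.0202), with ABA and SA (3.41 ± 0.89, adjusted p = 0.0353) and with ABA and JA (3.77 ± 0.89, adjusted p = 0.0131). Of all probe sets 7.04%, 2.22% and 3.31% were called higher there. These are the comparisons in which NRT2.5 was lower. The control itself had fallen, with a mean AT4G37180 level of 7.13 at 3 h and 3.67 at 24 h with ethanol. With ABA alone the means were 3.34 at 3 h and 6.53 at 24 h, with ABA and SA 8.95 and 7.08, and with ABA and JA 9.07 and 7.43. The part of culture time in these differences was not tested. Each of the 3 calls was lost without either ethanol array of 24 h (adjusted p 0.0637 to 0.183) and without some treated arrays (0.0668 to 0.217). Over 26 arrays AT4G37180 correlated with NRT2.5 at r = -0.72 (rho = -0.65), and AT1G25550 with AT1G68670 at r = 0.78 (rho = 0.47), both as descriptions over arrays that share treatments. AT1G25550 was not called against ethanol in any treatment at 24 h.

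**Figure D4:**
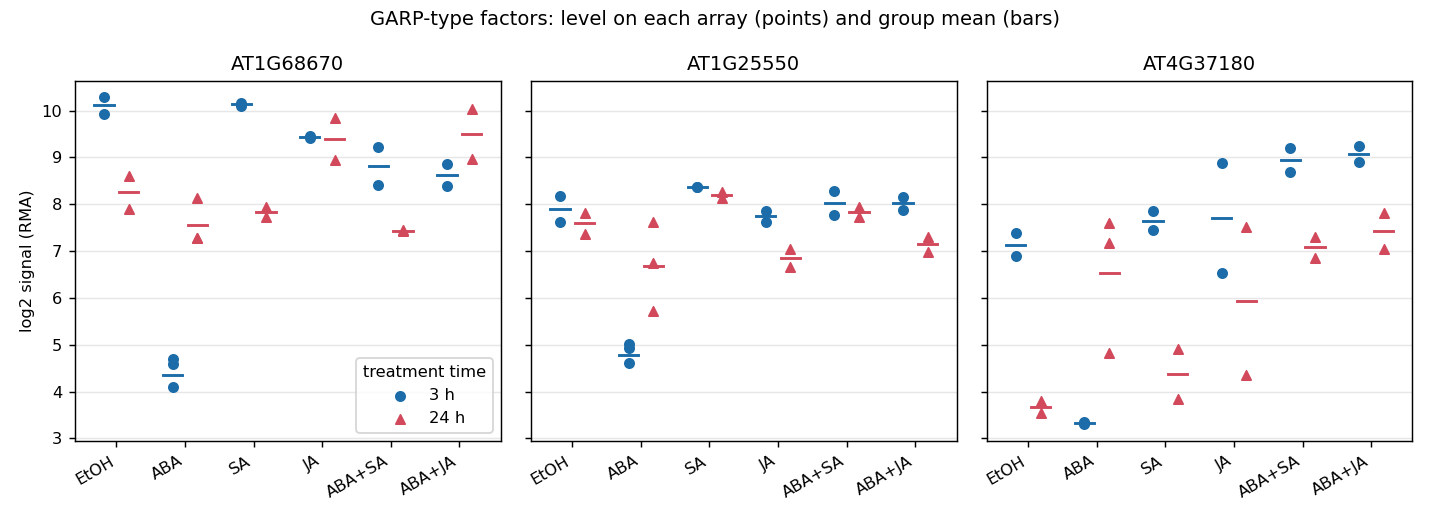
The y axis gives the log2 signal of 3 measured GARP-type genes on each array, with circles for 3 h, triangles for 24 h and bars for group means. All 3 were lower with ABA alone at 3 h (3.30 to 5.01) than with either hormone pair, and AT4G37180 was low with ethanol at 24 h as well (3.55 and 3.79).

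Of the wider nitrate pathway few genes were measured under a name. NRT2.5 was 1 of 9 NRT2 genes and partners, 1 of 27 signalling regulators was measured, and none of 21 genes of nitrate reduction and assimilation, 6 ammonium and urea transporters and 8 phosphate starvation genes. The regulator AT3G60320 fell with ABA at 3 h, from 9.21 and 9.17 with ethanol to 7.84, 7.96 and 7.90 (-1.29 ± 0.30, limma adjusted p = 0.00537, background 10.3%), a call lost without replicate 1 of ethanol (adjusted p = 0.0512). Like AT1G68670 it was also called lower with both pairs at 3 h. With ABA and JA it read 6.83 and 7.59 (-1.98 ± 0.33, limma adjusted p = 0.000261, background 13.0%), and with ABA and SA 8.08 and 8.27 (background 9.59%). The call with ABA and SA was lost with replicate blocks within each time (-1.02, limma adjusted p = 0.0585). It was also lost without either ethanol array of 3 h and without either array of the pair (-1.12 to -0.92).

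Of 13 NPF and CLC nitrate transporters 2 were measured. At 24 h both were higher with ABA than with ethanol, the comparison in which NRT2.5 was lower. Their median change was 4.34, against 0.0 for all probe sets, of which 7.04% were called higher. AT1G68570 (NPF3.1) read 9.07, 8.80 and 8.79 with ABA and 4.06 and 3.74 with ethanol (4.98 ± 0.78, limma adjusted p = 0.00027). AT2G26690 (NPF6.2), known for nitrate storage in the leaf petiole, read 7.41, 7.01 and 6.96 with ABA and 3.55 and 3.29 with ethanol (3.70 ± 0.84, adjusted p = 0.00496). Neither overlapped its control. The second call was lost without replicate 2 of ethanol, where the change was 3.57. For AT2G26690 the control itself fell, from a mean of 7.53 at 3 h to 3.42 at 24 h, while with ABA the means were 6.79 and 7.13. For AT1G68570 the means at 3 h and 24 h were 4.63 and 3.9 with ethanol and 4.31 and 8.89 with ABA. The part of culture time in these differences was not tested. With ABA and JA at 24 h AT2G26690 was also higher than with ethanol (4.40 ± 0.92, limma adjusted p = 0.00646, background 3.31%). AT1G68570 read 4.27 and 8.62 there and was not called. With ABA and SA at 24 h AT1G68570 was called higher (6.8 and 8.36, background 2.22%), and AT2G26690 (5.03 and 6.1) was not. The AT1G68570 call was lost without either ethanol array (3.83 and 3.52) and without replicate 1 of the pair (2.9). It was also lost in a fit of these groups alone (3.67, limma adjusted p = 0.0536).

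Taking all 11 measured genes that the annotation names as NPF, a list made after values had been seen, 5 were higher and none lower with ABA at 24 h (median 0.76, background 7.04% higher and 11.3% lower). Of the 5, AT3G25280 (0.76 ± 0.22, limma adjusted p = 0.0194) was not called without either ethanol array (adjusted p = 0.098 and 0.106), without replicate 2 of ABA (0.46, adjusted p = 0.0635) or in a fit of these groups alone (adjusted p = 0.165). The nitrate transporter gene AT3G21670 (NPF6.4) was dim, at 4.72, 4.52 and 4.69 with ABA against 3.26 and 3.53 with ethanol (1.25 ± 0.19, limma adjusted p = 0.000219). At 3 h with ABA 1 was higher and 1 lower (background 7.82% and 10.3%). The lower one was GTR2 (NPF2.11), a glucosinolate transporter gene, which read 5.55, 5.27 and 5.05 with ABA and 8.46 and 8.34 with ethanol (-3.11 ± 0.40, adjusted p = 5.92e-05). GTR2 was also lower with ABA and SA (5.08 and 5.82, change -2.95 ± 0.44, limma adjusted p = 0.000166, background 9.59%). With ABA and JA at 3 h it was called lower as well (6.35 and 6.57, background 13.0%).

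**Figure D5:**
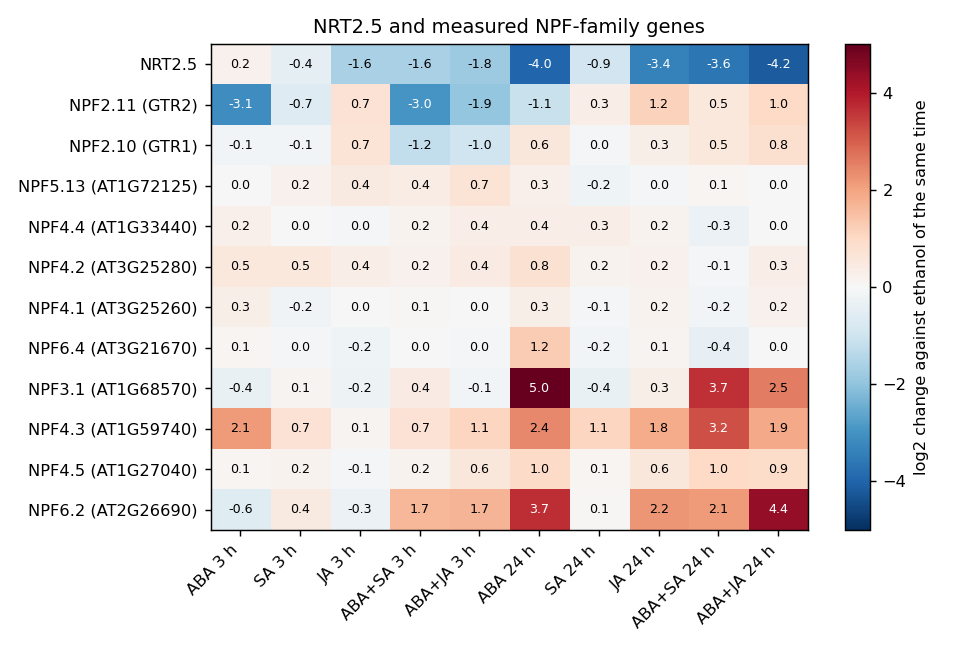
Rows are NRT2.5 and the 11 measured NPF genes, columns are treatments against ethanol of the same time, and colour and the printed number give the log2 change. NRT2.5 is lowest in the 24 h columns with ABA or JA. At 24 h NPF3.1 reaches 4.98 with ABA alone and NPF6.2 reaches 4.40 with ABA and JA. With JA alone at 24 h the mean level of NPF3.1 was 4.18, against 3.9 with ethanol. NPF6.2 read 3.53 and 7.75 with JA alone, against 3.29 and 3.55 with ethanol.

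The probe sets most like each gene were ranked by Pearson r over the 26 arrays, as a description. For NRT2.5 the highest were AT1G53440 (0.927), AT4G37110 (0.870), the expansin gene EXPB3 (0.865), AT1G03820 (0.865) and AT1G72250 (0.862). AT1G53440 was also first by Spearman's rho (0.868) and over the 12 group means (0.966), and it spanned 3.78 to 5.97. The lowest were AT1G23120 (-0.914), AT4G02860 (-0.871) and AT1G49500 (-0.867). For AT1G68670 the highest were AT5G44520 (0.920), AT1G33290 (0.919), AT1G64150 (0.906), LrgB (0.898) and AT4G30310 (0.896). The lowest were AT3G62430 (-0.875), AT4G22960 (-0.869) and AT5G10160 (-0.859). LrgB was first over the 12 group means (0.965) but 136th by rho.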

How the data were processed

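The deposited log2 values were made by the authors with RMA, per the submitters' processing notes (version not given in the sources used here), and the log2 scale was read from their range. There were 0 missing values among 22746 probe sets on 26 arrays, and array medians lay between 4.89 and 5.29. Raw intensities were not used here, and precision is limited by how many arrays there are. Gene names came from the platform's annotation of the probe sets and a reference annotation, without positions. Of the probe sets, 13436 matched 1 gene, 77 had 1 name without a match in the reference annotation, 503 had several names and 8730 none.

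With limma 3.58.1 (R 4.3.3, statmod 1.5.0) 12 group means were estimated from all arrays in 1 fit, and p-values were adjusted over all probe sets of a comparison. The procedure was tested on simulated data. The 12 comparisons that hold the ABA arrays of 3 h or the JA arrays of 24 h were described without a test for both genes, which leaves out some tests of the original plan. The planned sequence comparison was not run.

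The genes and lists were chosen with earlier results of these data known. The rule named both genes, list members with a call (at most the 4 largest changes a list and comparison), measured NRT2 and NIGT1/HHO genes, label checks, and the 5 probe sets of highest and 3 of lowest r. Not every gene under the rule is named. The NPF list by annotation, and genes followed into comparisons without a call, were chosen after values were seen. Alternatives were grouping by source name, the compared groups alone, a trended robust prior, replicate blocks, omission of the dimmest 25.0% of probe sets, quantile scaling, array weights, and leaving out or averaging arrays.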

Additional observations from a re-analysis of the deposited data

Results flagged for a closer look

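The response of AT1G68670 to ABA with JA differed between the times by a test of the difference itself. It was 2.74 ± 0.56 log2 units higher at 24 h than at 3 h (limma, adjusted p = 0.005), from -1.49 ± 0.40 at 3 h to 1.25 ± 0.40 at 24 h against ethanol. The change at 24 h was not called (adjusted p = 0.0556). From 3 h to 24 h the level changed by -1.86 ± 0.40 with ethanol and by 0.88 ± 0.40 with ABA and JA, the second not called (limma, adjusted p = 0.129). The arrays of this pair at 24 h stood at 0.101 and 0.326 on the culture-time axis and those of ethanol at 0.970 and 0.901, and the part of this in the difference was not tested.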

How the results depend on the processing

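The falls of NRT2.5 against ethanol at 24 h with ABA, ABA with SA and ABA with JA, and the fall of AT1G68670 with time under SA, kept their calls under all alternatives run, as did the change of the AT1G68670 response to ABA with JA (2.21 to 3.28 without single arrays). With groups by source name the 3 h values of the pairs are exchanged. NRT2.5 then gave -1.82 with ABA and SA (adjusted p = 0.0275), -1.62 with ABA and JA (adjusted p = 0.0633), 0.20 between the pairs at 3 h and -0.13 for ABA with JA between times, and AT1G68670 gave 0.20 between the pairs.

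In fits of the compared groups alone, calls of NRT2.5 were gained for ABA with SA at 3 h against ethanol (-1.62, adjusted p = 0.00384) and SA (-1.18, adjusted p = 0.0485) and for the response changes of both pairs (-2.0 and -2.33, adjusted p = 0.00603 and 0.0174). Calls were lost for ABA with SA against SA at 24 h (-2.67, adjusted p = 0.0737) and for SA between times (1.89, adjusted p = 0.0561; 1.86 and adjusted p = 0.0552 with quantile scaling). AT1G68670 lost both calls of ABA with JA at 24 h, against ABA (1.94, adjusted p = 0.0984) and ABA with SA (2.07, adjusted p = 0.207). Array weights gained the same 4 calls of NRT2.5 (adjusted p = 0.00543, 0.0498, 0.0298 and 0.0312). Without the dimmest 25.0% of probe sets 2 calls were gained, NRT2.5 with ABA and SA at 3 h (-1.62, adjusted p = 0.0492) and AT1G68670 with ABA and JA at 24 h (1.25, adjusted p = 0.0462). Without replicate 1 of both JA and ABA with JA at 24 h, AT1G68670 gave 1.40 (adjusted p = 0.0595) and 1.54 (adjusted p = 0.0668) for ABA with JA against ABA and ABA with SA, and NRT2.5 gave -0.09 for ABA with JA between times. The trended robust prior changed no call of either gene. Neither did the mean of the near-identical arrays, but these are in no tested comparison of the 2 genes. They could act there only through the shared estimate of spread. The causes were not tested.

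Equal replicate numbers were not taken as pairs, since no label ties them and same-numbered arrays did not all deviate together. Their r within a time was over 0.1 in 18 of 30 pairs of groups and at or under it in 9 (-0.243 to 0.699). At 3 h it was 0.253 to 0.553 among the 5 groups other than ABA alone and -0.243 to -0.0147 with ABA alone, and at 24 h it was 0.586 to 0.699 among ethanol, SA and ABA with SA. With the number as a block AT1G68670 gained its call with ABA and JA at 24 h (1.25, adjusted p = 0.0496, or 0.0472 with a block within each time), the difference between ABA with SA and ABA at 24 h turned to 0.04 and 0.16, and no other call of either gene changed.

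Without single arrays, where a call or a sign changed, NRT2.5 ranged over -1.71 to -1.52 with ABA and SA at 3 h against ethanol, -2.03 to -1.60 with ABA and JA, and -1.59 to -0.77 (3 h) and -3.31 to -2.03 (24 h) for ABA with SA against SA. ABA with JA at 3 h ranged over -0.42 to 0.01 against JA and -0.42 to 0.02 against ABA with SA. Between times NRT2.5 ranged over 2.3 to 2.49 with ethanol, 1.25 to 2.53 with SA and -0.15 to 0.29 with ABA and JA, and its response changes over -1.15 to 0.13 (SA), -2.09 to -1.91 (ABA with SA) and -2.55 to -2.11 (ABA with JA). AT1G68670 ranged against ethanol over -0.15 to 0.20 (SA), -1.71 to -0.87 (ABA with SA) and -1.73 to -1.25 (ABA with JA) at 3 h and over 0.72 to 1.78 (ABA with JA) at 24 h. Against SA at 3 h ABA with SA ranged over -1.74 to -0.90. Against ABA at 24 h it ranged over -0.28 to 0.16, ABA with JA over 1.40 to 2.47 and the interaction of ABA with SA over -0.08 to 0.63. The pairs differed by -0.62 to 0.22 at 3 h and 1.54 to 2.6 at 24 h. Between times AT1G68670 ranged over -2.22 to -1.50 (ethanol), -1.81 to -0.97 (ABA with SA) and 0.35 to 1.41 (ABA with JA). Where this left 1 array in a group, its spread was taken from the other groups.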
